A study of Homo sapiens with 20 samples.

Results

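MTAP, the phosphorylase that begins the salvage of methionine, was almost without transcript in 4 of 20 biliary tract cancer cell lines. The 4 lines that lost MTAP were chosen by its measured value, a raw count of at most 3, and are EGI-1, Mz-ChA-2, OZ and TFK-1. They were set against the other 16 lines, the MTAP expressing lines. Each line is an established human tumour line with 1 library of poly(A)-selected RNA, and lines serve as the replicates of each class. All lines were grown in the same supplemented medium and none had a labelled treatment. MTAP RNA, and not the gene or its protein, defined the classes, and DNA was not measured in these data.

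Among the lines that lost MTAP, EGI-1 and TFK-1 are extrahepatic bile duct lines from primary tumours, both supplied by DSMZ. Mz-ChA-2 is a gallbladder line from a liver metastasis, supplied from Zurich. OZ, from ascites and supplied by HSRRB, carries both the extrahepatic and the intrahepatic label. The MTAP expressing lines comprise 6 gallbladder, 3 extrahepatic, 4 intrahepatic and 3 ampullary lines, of which 11 came from primary tumours and 5 from ascites. Both DSMZ lines lost MTAP, and none of the 6 KCLB or 6 RIKEN lines did, so class and repository cannot be told apart for most lines.

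Total counts were 11.87 M to 15.41 M (M for mega) in the lines that lost MTAP and 10.47 M to 14.29 M in the MTAP expressing lines. Levels below are counts per M counts (CPM) on TMM-scaled library sizes. A transcript with no reads may still amount to 3 counts, or 0.195 to 0.287 CPM of the unscaled total, a floor for counting error only.

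The MTAP count was 0 in EGI-1, 0 in Mz-ChA-2, 0 in OZ and 1 in TFK-1, against 372 to 2152 in the MTAP expressing lines. The line just outside the threshold was SNU-245, with 372 counts and 36.9 CPM. The median of the MTAP expressing lines was 59.9 CPM and the highest, TGBC18TKB, had 196 CPM. These counts chose the classes and are a description only, with no test. In a bulk library, fewer cells with a transcript and less RNA per cell cannot be told apart.

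MTAP splits methylthioadenosine, the by-product of spermidine and spermine synthesis, into adenine and a sugar phosphate that further enzymes turn back into methionine. Without it, methylthioadenosine accumulates, and this molecule competes with S-adenosylmethionine on the arginine methyltransferase PRMT5. The gene lies at 9p21 beside CDKN2A, which encodes the cell cycle inhibitor p16INK4a and the p53 regulator p14ARF, and beside CDKN2B, which encodes p15INK4b. The 3 genes are often deleted together in human tumours, biliary cancers among them.

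The sequences shown are the upstream stretch of MTAP, whose transcript chose the classes, and the miRNAs whose host genes lost transcript in some of these lines. The MTAP stretch covers chr9:21802386-21802635 of GRCh38.p14 on the plus strand, and the RefSeq start site follows its last base. It comes from RefSeq, as do the mature miRNAs hosted at the locus. Capitals in the promoter mark 1 CCAAT and 2 GC boxes, one as GGGCGG and one as its reverse complement CCGCCC. On both strands, 32.0% of 35116 RefSeq promoter windows of the same 250 bases hold CCAAT and 42.6% hold GGGCGG. The MTAP window holds 11 CG pairs, and the median window also holds 11. Capitals in the miRNAs mark the seed, bases 2 to 8. The precursor of miR-31 lies within the MIR31HG gene, and that of miR-491 within FOCAD.
MTAP upstream: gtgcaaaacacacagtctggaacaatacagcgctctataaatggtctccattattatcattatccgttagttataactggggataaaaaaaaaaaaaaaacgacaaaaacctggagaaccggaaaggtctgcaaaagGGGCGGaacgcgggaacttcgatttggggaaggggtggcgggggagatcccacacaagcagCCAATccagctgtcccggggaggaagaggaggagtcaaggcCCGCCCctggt
hsa-miR-31-5p: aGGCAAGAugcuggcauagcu
hsa-miR-491-5p: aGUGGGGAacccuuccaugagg
hsa-miR-491-3p: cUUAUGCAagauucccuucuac
The 3 seeds differ from each other. Poly(A)-selected libraries do not measure mature miRNAs, and the precursor entries MIR31 and MIR491 had 0 counts in every line, so only their host transcripts are given here.

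The 4 lines that lost MTAP also lacked the transcripts of its neighbours, over stretches of different length. The 40 counted entries on each side of MTAP were taken in RefSeq gene order, and 43 of these, MTAP included, had a median of at least 1 CPM in the MTAP expressing lines. Per line, an entry with at most 3 counts is called without transcript. CDKN2A, CDKN2B-AS1, CDKN2B and LINC01239 were without transcript in all lines that lost MTAP. Over the whole genome, 10 of 13636 genes with a median of at least 1 CPM in the MTAP expressing lines met that rule, which is 0.0733%. These neighbours were also without transcript in some MTAP expressing lines, 3 for CDKN2A and 4 each for CDKN2B-AS1, CDKN2B and LINC01239.

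In EGI-1, 6 consecutive entries were without transcript, running from MTAP through CDKN2A, CDKN2B-AS1, CDKN2B and the transcription factor gene DMRTA1 to the non-coding LINC01239. On the other side EGI-1 kept 10 counts of MIR31HG, the host of miR-31, and 13 of IFNE, the epithelial interferon epsilon. In OZ the run held 8 entries, from MIR31HG to LINC01239. In TFK-1 it held 6, from MIR31HG to CDKN2B, followed by 5 counts of DMRTA1 and 0 of LINC01239. At a threshold of 10 counts the TFK-1 run held 8 entries and ended at LINC01239 as in OZ, while the runs of EGI-1, OZ and Mz-ChA-2 kept their length.

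Mz-ChA-2 had the longest run of the 4 lines, with 12 entries. It took in MLLT3, a chromatin reader and leukaemia fusion partner, FOCAD, a focal adhesion gene that hosts miR-491, and KLHL9, an adaptor of a mitotic ubiquitin ligase, each with 0 counts. On the far side it ended with 3 counts of TUSC1. TUSC1 also had 0 counts in 2 MTAP expressing lines, G415 and OCUG-1, and 48 to 302 in the others. FOCAD stood at 0 CPM in Mz-ChA-2 but at 61 CPM in EGI-1, 34.7 in OZ and 34.9 in TFK-1, against 20.9 to 69.8 CPM in the MTAP expressing lines. KLHL9 likewise stood at 0 CPM in Mz-ChA-2, with 48.1, 22.9 and 53.7 CPM in EGI-1, OZ and TFK-1 and 20.7 to 107 CPM in the MTAP expressing lines. In the 3 other lines that lost MTAP, FOCAD and KLHL9 therefore lay within the range of the MTAP expressing lines. Farther out, CAAP1 and PLAA on one side and DENND4C and RPS6 on the other had transcript in all 20 lines. Beyond DENND4C, some entries outside the runs were again without transcript. TTC39B had 0 counts in Mz-ChA-2, against 7 to 172 in the MTAP expressing lines. PLIN2 had 0 counts in TFK-1, but also 3 in Sk-ChA-1 and 2 in SNU-1079, which express MTAP.

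**Figure D1:**
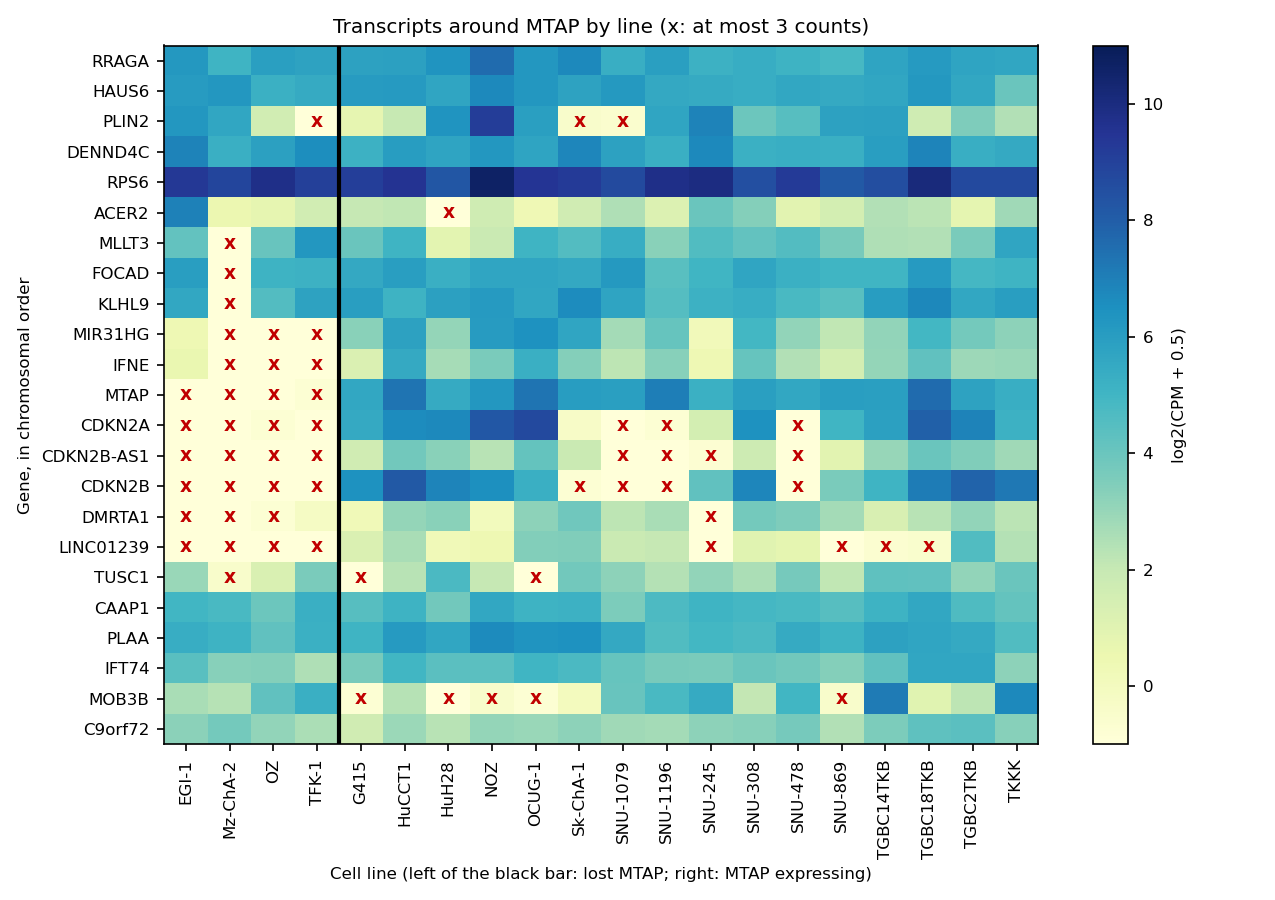
Heat map of log2(CPM + 0.5) for the entries around MTAP with a median of at least 1 CPM in the MTAP expressing lines, rows in chromosomal order and 1 column per line. The 4 lines that lost MTAP stand left of the black bar and a red x marks at most 3 counts, so the runs of 6, 12, 8 and 6 entries appear as columns of x through the MTAP row.

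CDKN2A, CDKN2B, CDKN2B-AS1 and LINC01239 were also missing from some lines that express MTAP. CDKN2A had 0, 0, 1 and 0 counts in EGI-1, Mz-ChA-2, OZ and TFK-1, and at most 4 counts in 4 of the MTAP expressing lines, Sk-ChA-1 (4), SNU-1079 (0), SNU-1196 (1) and SNU-478 (0). The same 4 lines had 1, 0, 0 and 0 counts of CDKN2B, while their MTAP counts were 860, 720, 1754 and 582. A further line, SNU-245, had 24 counts of CDKN2A, 186 of CDKN2B and 0 each of DMRTA1 and LINC01239. CDKN2B-AS1 had 0 counts in SNU-1079, SNU-1196 and SNU-478 and 1 in SNU-245. LINC01239 also had 0 counts in SNU-869 and 2 each in TGBC14TKB and TGBC18TKB. The classes therefore overlapped for CDKN2A, CDKN2B, CDKN2B-AS1 and LINC01239. MIR31HG and IFNE had more than 3 counts in all 16 MTAP expressing lines, but their classes overlapped too, since EGI-1 lay above SNU-245 in both.

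By edgeR's quasi-likelihood test with Benjamini-Hochberg adjustment over the 16050 genes tested, none of these neighbours passed 0.05 with all 20 lines. Without EGI-1, MIR31HG (log2 difference −7.32, adjusted p = 0.0366) and IFNE (−6.25, adjusted p = 0.0232) passed. MIR31HG had 0.801, 0, 0 and 0 CPM in EGI-1, Mz-ChA-2, OZ and TFK-1, against 0.596, 11.1 and 84.8 CPM as lowest, median and highest of the MTAP expressing lines. Its adjusted p was 0.166, with a log2 difference of −6.14 ± 1.58 (SE). IFNE had 1.04, 0, 0 and 0 CPM against 0.795 to 43.9 CPM, a log2 difference of −4.85 ± 1.45 (SE) and an adjusted p of 0.338. DMRTA1 had 0, 0, 0.0835 and 0.357 CPM against 0 to 14.1 CPM, a log2 difference of −4.57 ± 1.44 (SE) and an adjusted p of 0.276. In all 3, SNU-245 lay among the lines that lost MTAP. CDKN2B was at 0 in all lines that lost MTAP, which is at least 247-fold lower than the median of 61.8 CPM in the MTAP expressing lines, taking 3 counts per library as the floor. The same bound was 15.4-fold for CDKN2B-AS1 and 6.69-fold for LINC01239. CDKN2B, CDKN2B-AS1 and LINC01239 each also had at most 3 counts in 4 MTAP expressing lines. DESeq2, by contrast, passed CDKN2A and CDKN2B (adjusted p = 1.58e-08 each), MIR31HG (2.20e-08), IFNE (1.91e-05), DMRTA1 (2.67e-05), CDKN2B-AS1 (0.000118) and LINC01239 (0.000289).

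The other enzymes of methionine salvage did not pass the test in either direction. Over all genes, 10 (0.0623% of those tested) passed higher in the lines that lost MTAP and 0 (0%) lower, so calls were rare throughout. With MTAP set aside, 9 of the 10 list members were tested, 3 with a log2 difference above 0 and 6 below, and their median was −0.18, beside −0.06 over all genes. MRI1, which isomerises the sugar phosphate made by MTAP, had 43.6, 19.5, 37 and 19.3 CPM in EGI-1, Mz-ChA-2, OZ and TFK-1, against a median of 33.9 (range 13.9 to 98.1) in the MTAP expressing lines. APIP, the dehydratase of the next step, had 19.4, 18.7, 14.4 and 16.7 CPM against a median of 18.5 (8.74 to 44.6). In both genes all lines that lost MTAP lay within the range of the others.

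ENOPH1, the enolase-phosphatase of the pathway, had 33.2 CPM in EGI-1, below the lowest MTAP expressing line at 38, and 67.1, 54.6 and 69.2 CPM in Mz-ChA-2, OZ and TFK-1. ADI1, the dioxygenase that makes the keto acid of methionine, had 65.9, 52.1, 94.4 and 72.4 CPM against a median of 67.5 (20.8 to 204). The log2 differences of MRI1, APIP, ENOPH1 and ADI1 were −0.37 ± 0.40, −0.18 ± 0.34, −0.31 ± 0.34 and −0.10 ± 0.41 (SE), with 95% intervals of −1.21 to 0.46, −0.89 to 0.53, −1.02 to 0.40 and −0.96 to 0.76.

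The last step, in which the keto acid receives an amino group, can be carried out by several aminotransferases. KYAT3, one of them, had the smallest p of the list. It stood at 34.9, 38.3, 44.6 and 39.5 CPM in EGI-1, Mz-ChA-2, OZ and TFK-1, against a median of 23.8 (8.86 to 39.3) in the MTAP expressing lines. All 4 lines lay above that median and OZ and TFK-1 above every MTAP expressing line. Its log2 difference was 0.70 ± 0.31 (SE), with an edgeR adjusted p of 0.832 and an exact permutation p of 0.0198 before adjustment. GOT1, the cytosolic aspartate aminotransferase, was above the median of the MTAP expressing lines in 4 of 4 lines (68.4, 111, 91.1 and 141 CPM against a median of 58.7). GOT2, its mitochondrial counterpart, was below it in 3 of 4, and KYAT1 ran from 10.3 CPM in TFK-1 to 53.9 in Mz-ChA-2.

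**Figure D2:**
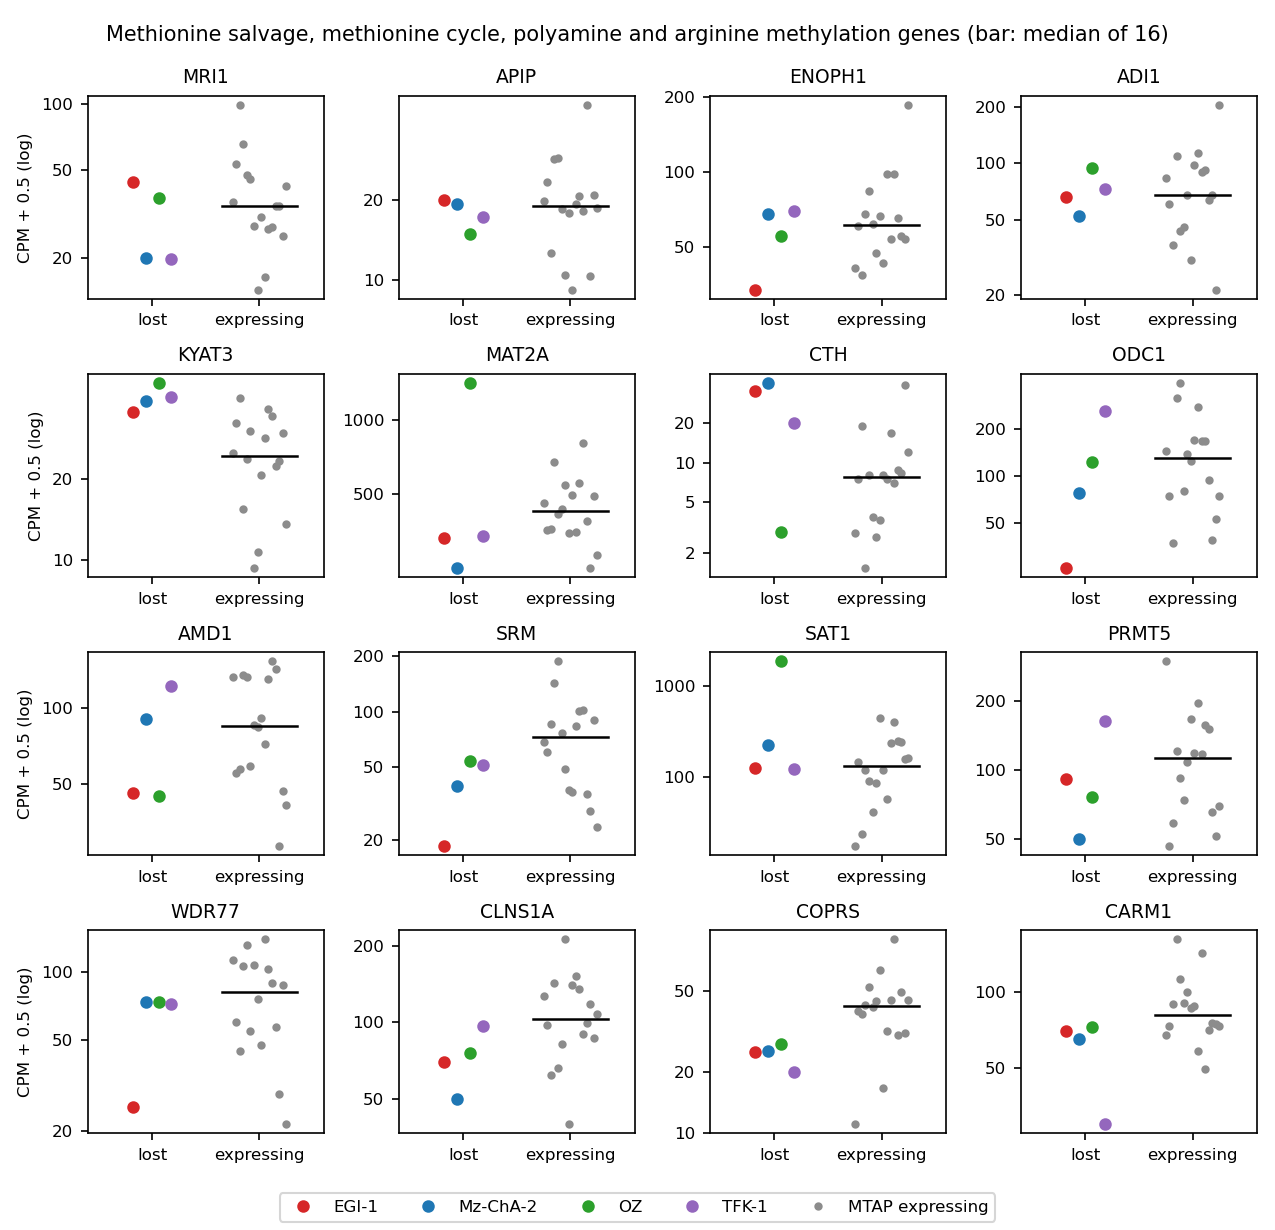
CPM + 0.5 on a log axis for 16 genes of methionine salvage, the methionine cycle, polyamine metabolism and arginine methylation, with the 4 lines that lost MTAP in colour on the left, the 16 MTAP expressing lines in grey on the right and their median as a bar. The classes overlap in every panel, and single lines such as OZ for MAT2A and SAT1 and EGI-1 for ODC1 and SRM lie beyond the grey points.

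In the methionine cycle, which makes S-adenosylmethionine and regenerates methionine from homocysteine, 0 of 13 members tested passed in either direction. Log2 differences were above 0 in 7 and below in 6, with a median of 0.12. MAT2A, the S-adenosylmethionine synthetase of tissues outside the adult liver, had 1418 CPM in OZ, the highest of all 20 lines. In EGI-1, Mz-ChA-2 and TFK-1 it had 328, 248 and 335 CPM, below the median of 422 (248 to 805) in the MTAP expressing lines. The sign of its log2 difference therefore rested on OZ, at 0.38 ± 0.35 (SE) with all lines and −0.57 without OZ.

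CTH, which makes cysteine from cystathionine, had 35.3, 40.3, 2.42 and 19.6 CPM in EGI-1, Mz-ChA-2, OZ and TFK-1, against a median of 7.22 (1.05 to 39.1) in the MTAP expressing lines. It was above that median in 3 of 4 lines, with a log2 difference of 1.37 ± 0.66 (SE), and did not pass (edgeR adjusted p = 0.839). MTRR, which reactivates methionine synthase, reached 134 CPM in TFK-1, above the 87.1 CPM of the highest MTAP expressing line, and 50.8, 80.4 and 42.6 CPM in EGI-1, Mz-ChA-2 and OZ. Its log2 difference was 0.45 ± 0.29 (SE) and 0.03 without TFK-1.

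Polyamine genes likewise gave 0 calls among 22 members tested, with 10 log2 differences above 0, 12 below and a median of −0.10. On the synthesis side, all lines that lost MTAP lay below the MTAP expressing median of SRM, the spermidine synthase whose reaction releases methylthioadenosine. SRM had 18.2, 39.2, 53.5 and 51.1 CPM in EGI-1, Mz-ChA-2, OZ and TFK-1, against a median of 72.2 (23.3 to 187), and a log2 difference of −0.89 ± 0.47 (SE; edgeR adjusted p = 0.868). SMS, the X-linked spermine synthase, was also below the median of 71.5 CPM in 4 of 4 lines (45.2, 47.9, 66 and 51 CPM), with a log2 difference of −0.63 ± 0.47 (SE). Neither passed, and the values of both overlapped widely between the classes.

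ODC1, the ornithine decarboxylase that opens the pathway, ran from 25.6 CPM in EGI-1, the lowest of the 20 lines, through 77.7 in Mz-ChA-2 and 123 in OZ to 259 in TFK-1. The MTAP expressing lines had a median of 130 (37.2 to 389). AMD1, which makes the decarboxylated S-adenosylmethionine that both synthases use, had 45.6, 89.9, 44.5 and 122 CPM in EGI-1, Mz-ChA-2, OZ and TFK-1, against a median of 84.4 (27.9 to 153). The log2 differences of ODC1 and AMD1 were −0.27 ± 0.58 and −0.25 ± 0.40 (SE). The lines that lost MTAP thus differed among themselves in ODC1 by more than the classes differed.

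On the breakdown side, SAT1, the X-linked spermidine and spermine acetyltransferase, had 1839 CPM in OZ, the highest of all lines and above the 436 CPM of the highest MTAP expressing line. EGI-1, Mz-ChA-2 and TFK-1 had 125, 226 and 123 CPM, around the MTAP expressing median of 133. The log2 difference of 1.85 ± 0.66 (SE) became −0.03 without OZ, and it did not pass with OZ (edgeR adjusted p = 0.748). ATP13A2, a lysosomal polyamine exporter, also peaked in OZ, at 265 CPM, with 158 in EGI-1 and 30.1 and 34.5 in Mz-ChA-2 and TFK-1, against 22.8 to 144 CPM in the MTAP expressing lines. EGI-1 and OZ lay above that range. OZ was thus the highest of all 20 lines in MAT2A, SAT1 and ATP13A2. DHPS, which attaches a spermidine-derived group to the translation factor eIF5A, was above the median of 43.4 CPM in 3 of 4 lines (log2 difference 0.37 ± 0.28, SE). EIF5A itself was below its median of 380 CPM in 3 of 4 (log2 difference −0.59 ± 0.45, SE).

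Arginine methylation genes had mostly negative log2 differences, without a call. Of 17 members tested, 14 lay below 0 and 3 above, with a median of −0.37 and a range of −0.79 to 0.27. Over all genes 8840 of 16050 lay below 0, with a median of −0.06, and members of 1 list are not independent. PRMT5, the main enzyme for symmetric dimethylation of arginine, had 90.5, 49.3, 75.8 and 163 CPM in EGI-1, Mz-ChA-2, OZ and TFK-1, against a median of 113 (46.2 to 297) in the MTAP expressing lines. It lay below that median in 3 of 4 lines and within the range in all, with a log2 difference of −0.32 ± 0.42 (SE; edgeR adjusted p = 0.97). The 95% interval of −1.19 to 0.56 leaves room for a change in either direction.

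Partners of PRMT5 also lay mostly below the MTAP expressing median. WDR77, the obligate partner that forms an octamer with it, had 24.9, 73.5, 73 and 71.9 CPM in EGI-1, Mz-ChA-2, OZ and TFK-1, against a median of 81.1 (21 to 138). CLNS1A, the adaptor that brings Sm proteins to the enzyme, had 69.4, 49.4, 75.2 and 95.9 CPM against a median of 103 (39.2 to 212). COPRS, the adaptor for histones, had 24.5, 24.9, 27 and 19.6 CPM against a median of 41.7 (10.6 to 89.4). For these 3 genes 4 of 4 lines lay below the median, and each still fell within the range of the MTAP expressing lines.

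The log2 differences were −0.37 ± 0.41 for WDR77, −0.59 ± 0.32 for CLNS1A and −0.79 ± 0.37 for COPRS (SE). Their edgeR adjusted p values were 0.954, 0.884 and 0.832. The difference of WDR77 was −0.12 without EGI-1, and that of CLNS1A −0.08 in the extrahepatic lines alone and −0.22 with repository as a covariate. That of COPRS was −0.86 and −0.77 under the same 2 settings. RIOK1, an adaptor that competes with CLNS1A, had a log2 difference of −0.51 ± 0.33 (SE). CARM1, which dimethylates histone H3 asymmetrically, was below its median of 80.1 CPM in 4 of 4 lines (69.5, 64.8, 71.9 and 29.6 CPM; log2 difference −0.57 ± 0.29, SE), with TFK-1 under every MTAP expressing line. PRMT2 was below its median in 3 of 4 lines (−0.49 ± 0.39, SE) and PRMT7, a monomethylating enzyme, above its median in 4 of 4 (0.27 ± 0.22, SE, and 0.07 without Mz-ChA-2). SMN1 and SMN2, near-identical copies whose reads cannot be assigned with certainty, had nearly equal values in every line that lost MTAP.

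Sm proteins and assembly factors of the spliceosomal ribonucleoproteins, among them substrates of PRMT5, gave 0 calls in 14 members tested. Of these 9 lay below 0 and 5 above, with a median of −0.18 and a range of −0.59 to 0.23. GEMIN5, which recognises small nuclear RNAs, was below its median of 45.5 CPM in 4 of 4 lines (20.6, 36.9, 32.6 and 38 CPM), with a log2 difference of −0.59 ± 0.41 (SE). LSM4, a methylated Sm-like protein, was below its median in 3 of 4 (−0.38 ± 0.26, SE).

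Adenine released by MTAP normally re-enters the purine pool, and purine genes were examined for that reason. Salvage genes gave 0 calls in 9 tested (median −0.11) and genes of new synthesis 0 in 13 (median −0.33, with 9 below 0). HPRT1, which salvages hypoxanthine and guanine, had 20.3, 23.2, 53.7 and 33.5 CPM in EGI-1, Mz-ChA-2, OZ and TFK-1, against a median of 91.8 (27.7 to 192) in the MTAP expressing lines. EGI-1 and Mz-ChA-2 lay under every MTAP expressing line. Its log2 difference of −1.54 ± 0.42 (SE) did not pass by edgeR (adjusted p = 0.374) and did by DESeq2 (adjusted p = 0.0213). HPRT1 lies on the X chromosome, whose genes had a median log2 difference of −0.48.

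PRPS1 and PRPS2, the phosphoribosyl pyrophosphate synthetases, are also X-linked and had log2 differences of −1.04 ± 0.57 and −0.64 ± 0.32 (SE). APRT, which converts adenine itself, had 53.5, 58.4, 140 and 95.3 CPM against a median of 102 (41.6 to 171). SLC29A1, a nucleoside transporter, was below its median of 69.4 CPM in 4 of 4 lines (log2 difference −1.06 ± 0.63, SE). The 9 amino acid importers tested, which include methionine carriers, gave 0 calls and a median of 0.01.

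Genes that act with the products of CDKN2A and CDKN2B were not called either (0 of 14, median 0.13). CDK4, the kinase that both p16INK4a and p15INK4b inhibit, was below the median of 164 CPM in 4 of 4 lines, at 88, 75, 161 and 119 CPM, with Mz-ChA-2 under the lowest MTAP expressing line (87.9 CPM). Its log2 difference was −0.68 ± 0.28 (SE; edgeR adjusted p = 0.832), −0.58 in the extrahepatic lines alone and −0.14 with repository as a covariate. CCND1, the cyclin partner of CDK4, was above its median of 390 CPM in EGI-1 (570), Mz-ChA-2 (2128) and TFK-1 (568) but not in OZ (285). Its log2 difference was 1.21 ± 0.50 (SE; adjusted p = 0.832) and 0.30 without Mz-ChA-2. MDM2, the p53 ligase that p14ARF restrains, was above its median of 78.9 CPM in 4 of 4 lines, at 97.7, 159, 205 and 99.1 CPM, with a log2 difference of 0.56 ± 0.33 (SE).

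**Figure D3:**
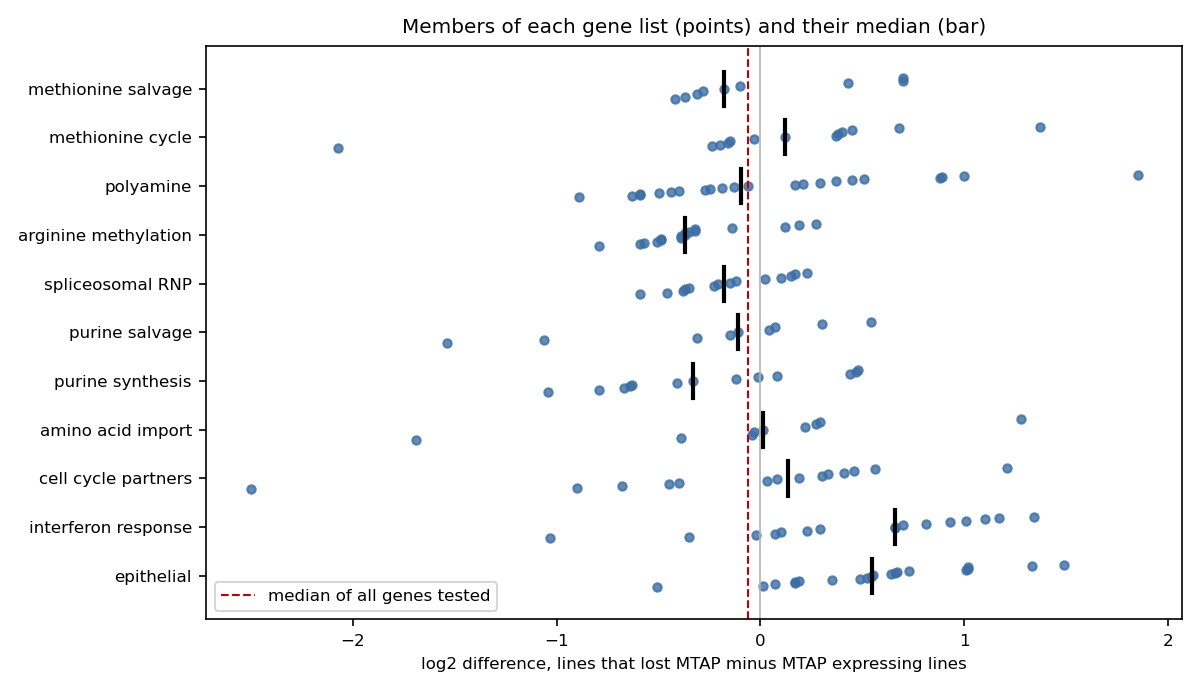
Log2 differences of the tested members of 11 gene lists, lines that lost MTAP minus MTAP expressing lines, with 1 point per gene, the list's median as a black bar and the median of all genes tested as a dashed line. No point passed the test, and the medians of the lists drawn run from −0.37 for arginine methylation to 0.66 for the interferon response.

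The interferon response list, examined because the interferon gene cluster lies beside MTAP, gave 0 calls in 16 tested, with 13 log2 differences above 0 and a median of 0.66. The lines that lost MTAP were split. Its summed level was 2150 CPM in EGI-1 and 9351 in TFK-1 but 225 in Mz-ChA-2 and 400 in OZ, against a median of 920 (327 to 10960) in the MTAP expressing lines. IFIT1, an interferon-induced RNA-binding protein, followed that order, with 107, 3.83, 13.1 and 780 CPM in EGI-1, Mz-ChA-2, OZ and TFK-1, against 4.57 to 563 CPM. The type I interferon IFNA1 was at 0 in every line that lost MTAP and at 0 to 4.58 CPM in the others. It had at most 3 counts in 9 of the MTAP expressing lines, and the highest value was that of OCUG-1 (60 counts). Their median of 0.177 CPM is too low to compare the classes, and the near-identical IFNA13 may share reads of IFNA1. The positive median of the list therefore did not describe Mz-ChA-2 or OZ.

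Across the genome the 10 genes called higher in the lines that lost MTAP were carried mostly by Mz-ChA-2. IGF2, a fetal growth factor, had 4203 CPM in Mz-ChA-2 and 2.8, 1.5 and 0.928 CPM in EGI-1, OZ and TFK-1, against at most 22.2 CPM in the MTAP expressing lines. INS-IGF2, a read-through entry that overlaps it, had 3988 CPM in the same line and likely counts the same reads in part. GPC3, an oncofetal proteoglycan, had 1796 CPM in Mz-ChA-2 and at most 0.334 CPM in the 3 other lines that lost MTAP, against at most 11.7 CPM in the MTAP expressing lines. AMBP, a plasma protein precursor of the liver, had 1083 CPM in Mz-ChA-2, and NID1, a basement membrane protein, had 720. KLB, the co-receptor of the bile acid hormone FGF19, had 103 CPM there and CTXND1 230, both under 1 CPM in the 3 other lines that lost MTAP and at most 1.8 CPM in the MTAP expressing lines.

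These log2 differences were 5.24 ± 0.88 for KLB, 6.59 ± 1.03 for CTXND1, 7.90 ± 1.29 for NID1, 8.29 ± 1.41 for AMBP, 8.04 ± 1.40 for IGF2, 7.99 ± 1.39 for INS-IGF2 and 8.21 ± 1.56 for GPC3 (SE). The edgeR adjusted p values ran from 0.0112 to 0.0468. Without Mz-ChA-2 they became 0.35 for KLB, −0.10 for CTXND1, 1.79 for NID1, 0.89 for AMBP, −1.08 for IGF2, −0.99 for INS-IGF2 and −2.13 for GPC3, and none of the 7 passed. They are therefore values of Mz-ChA-2 set against the rest, not of the class.

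Each of 2 further calls rested on another line. CDHR2, a cadherin of the intestinal brush border, had 255 CPM in OZ and 8.28 in Mz-ChA-2, with 0.401 and 0.714 CPM in EGI-1 and TFK-1, against at most 2.43 CPM in the MTAP expressing lines. Its log2 difference of 6.04 ± 0.97 (SE) became 1.70 without OZ and no longer passed. MTRNR2L8, a nuclear copy of part of the mitochondrial ribosomal RNA, had 227 CPM in EGI-1 and at most 3.51 CPM in the 3 other lines that lost MTAP, against at most 8.28 CPM. Without EGI-1 its difference of 4.40 ± 0.74 (SE) became 0.02, and reads of its near-identical copies cannot be assigned with certainty. Without Mz-ChA-2, CDHR2 and MTRNR2L8 were the only calls.

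ADCY5 was the only called gene that was high in more than 2 of the lines that lost MTAP. It encodes an adenylyl cyclase, which makes cyclic AMP. It had 14.3, 25.6 and 39.1 CPM in EGI-1, Mz-ChA-2 and TFK-1 and 1.92 in OZ, against a median of 1.32 (0.0993 to 4.69) in the MTAP expressing lines. Thus 3 of the 4 lines lay above every MTAP expressing line and OZ lay among them. The log2 difference was 3.57 ± 0.66 (SE, edgeR adjusted p = 0.0286), and the exact permutation p was 0.00144 before adjustment, where 4.43% of genes lay under 0.05, and 0.697 after. Within the extrahepatic lines alone, EGI-1 and TFK-1 against 3 others, the difference was 5.82 and did not pass. With repository as a covariate it was 3.03 (adjusted p = 0.822), and leaving out Mz-ChA-2 or TFK-1 gave adjusted p values of 0.255 and 0.149. It also missed 0.05 when any of 9 MTAP expressing lines was left out (G415, HuCCT1, HuH28, OCUG-1, Sk-ChA-1, SNU-1079, SNU-1196, SNU-869 or TGBC18TKB; adjusted p = 0.0515 to 0.0751), with log2 differences of 3.48 to 3.58. Over all genes, 0 were called in the extrahepatic lines alone and 0 with repository, origin or site as a covariate. Within the Zurich and HSRRB repositories 1 line each had lost MTAP, too few for a test.

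**Figure D4:**
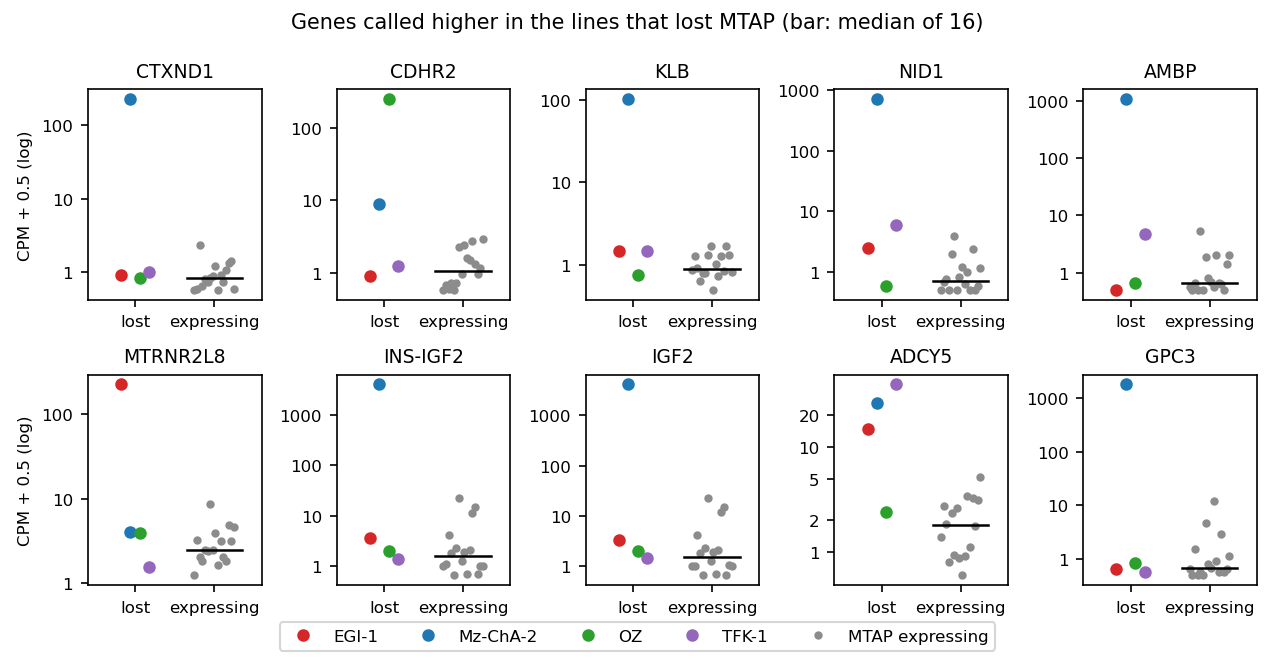
CPM + 0.5 on a log axis for the 10 genes called higher, with the lines that lost MTAP in colour on the left, the 16 MTAP expressing lines in grey on the right and their median as a bar. In 9 panels 1 coloured line stands far above the rest, Mz-ChA-2 in 7 of them, whereas ADCY5 has 3 coloured lines above every grey point.

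No gene was called lower by edgeR, although 946 genes (5.89%) had an unadjusted p under 0.05 in either direction. The count of genes called lower by edgeR was 1 with no filter on low counts and 1 without SNU-308, SLC10A3 both times (adjusted p = 0.038 and 0.0372), and 3 without EGI-1, MIR31HG, IFNE and the miRNA precursor entry MIR4793. DESeq2 called 81 lower and 17 higher, and limma-voom called 0. For 6 genes (0.0374% of those tested) all 4 lines that lost MTAP lay below all 16 MTAP expressing lines, and for 0 genes (0%) all lay above. Of these, 5 are X-linked, where 3.41% of the genes tested lie, namely LAGE3, a subunit of a transfer RNA modifying complex, UBL4A, a chaperone for tail-anchored proteins, NKRF, a repressor of NF-kappa B targets, STEEP1, which helps STING leave the endoplasmic reticulum, and EOLA1. The sixth, PRKAG2, is a regulatory subunit of the energy sensor AMPK and lies on chromosome 7. UBL4A had 23.1, 23.5, 34.1 and 37.7 CPM in EGI-1, Mz-ChA-2, OZ and TFK-1, against 41.2 to 101 CPM, and PRKAG2 had 14, 5.46, 7.1 and 13.4 CPM against 14 to 74.6 CPM, its closest lines differing only beyond the digits shown.

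Of the 10 genes of smallest p among those lower in the lines that lost MTAP, 6 lie on X, which holds 3.41% of the genes tested, and 3 at 9p21. SLC10A3 had the smallest, with 19.1, 15.5, 26.1 and 10.9 CPM in EGI-1, Mz-ChA-2, OZ and TFK-1, against a median of 50.2 (25.2 to 95.1) in the MTAP expressing lines. Its log2 difference was −1.56 ± 0.32 (SE), its edgeR adjusted p 0.0949 and its DESeq2 adjusted p 0.000122. LAGE3, UBL4A, SLC10A3 and FAM3A are consecutive in RefSeq order, at places 922 to 925 of 963 X-linked genes, and F8A1 stands at 942. NKAP (675), NKRF (665) and STEEP1 (663) form a second group of neighbours. This grouping was seen after the values were known, neighbouring genes can share reads where strand was not used, and F8A1 has near-identical copies.

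The log2 differences of these genes were −1.91 ± 0.42 for PRKAG2, −2.14 ± 0.48 for LAGE3, −1.15 ± 0.26 for UBL4A, −1.61 ± 0.41 for FAM3A, −1.28 ± 0.30 for F8A1 and −1.06 ± 0.27 for NKAP (SE). Within the extrahepatic lines alone they were −1.86, −2.37, −1.17, −1.99, −0.85 and −1.66, and −1.91 for SLC10A3. With repository as a covariate they were −2.72, −2.38, −1.29, −1.53, −1.09 and −1.11, and −1.49 for SLC10A3. These genes were chosen for being low in the same lines, so a lower value in either setting adds no evidence. For PRKAG2, LAGE3 and UBL4A the classes did not overlap, so the sign within the extrahepatic lines was set in advance. Both DSMZ lines lost MTAP and were fitted in the same repository level as the Zurich lines. No gene was called in either setting.

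Over whole chromosomes, X and 7 stood lowest in the lines that lost MTAP. The median log2 difference was −0.48 over 548 X-linked genes, with 74.1% below 0, and −0.40 over 807 genes of chromosome 7, with 77.1% below 0. Chromosome medians elsewhere ran from −0.23 on chromosome 13 to 0.14 on chromosome 15. Genes of 1 chromosome are not independent, and no test was made. By line, the median deviation of 420 X-linked genes from their median over the 20 lines was −0.60 in EGI-1, −0.20 in OZ, −0.45 in TFK-1 and 0.05 in Mz-ChA-2, against −0.15 to 0.49 in the MTAP expressing lines. EGI-1, OZ and TFK-1 were therefore lower than every MTAP expressing line and Mz-ChA-2 was not.

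For 641 genes of chromosome 7 the deviation was −0.56 in EGI-1 and −0.38 in TFK-1 but −0.08 in Mz-ChA-2 and 0.09 in OZ. Among the MTAP expressing lines it ran from −0.49 in TGBC14TKB to 0.61 in TKKK, with −0.48 in HuH28. The lower median of the class on chromosome 7 thus came from EGI-1 and TFK-1, and similar values occurred in lines that express MTAP. Gene copy number was not measured.

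**Figure D5:**
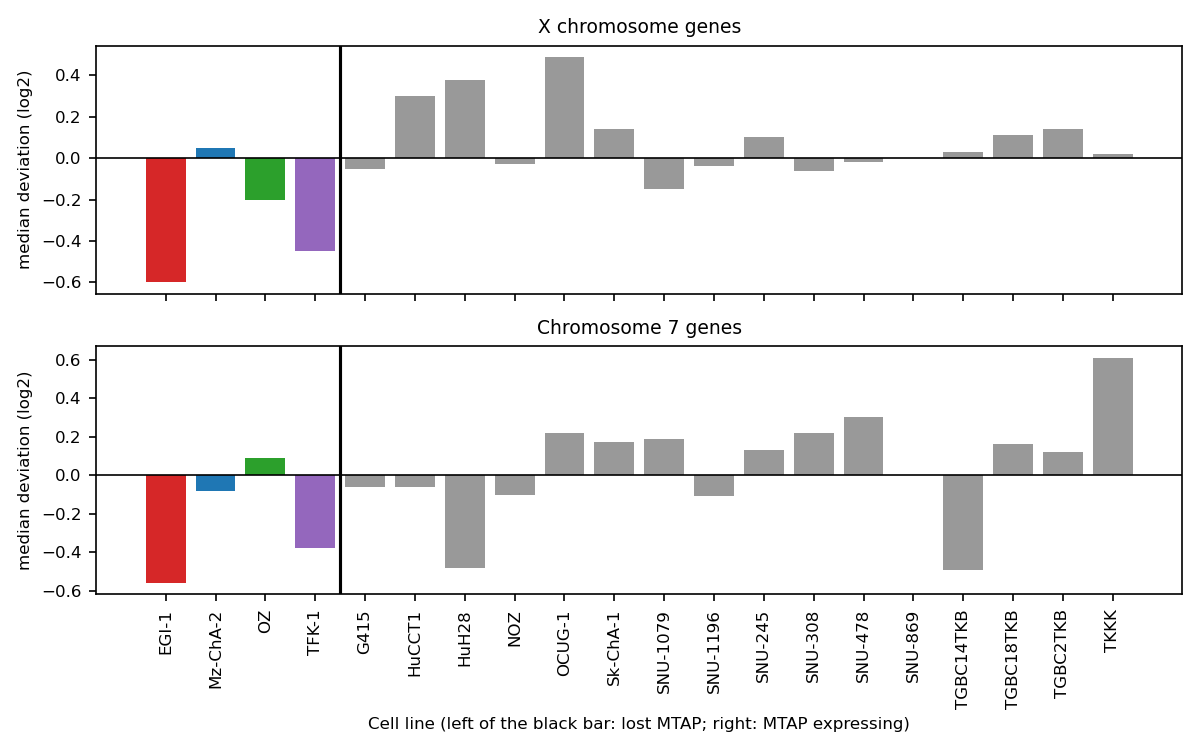
Median deviation per line, in log2 units, of X-linked genes (top) and chromosome 7 genes (bottom) from each gene's median over the 20 lines, with the lines that lost MTAP in colour left of the black bar and the MTAP expressing lines in grey. On X, EGI-1, OZ and TFK-1 at −0.60, −0.20 and −0.45 lie under every grey bar, and on chromosome 7 the grey bars of HuH28 and TGBC14TKB are about as low as those of EGI-1 and TFK-1.

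Mz-ChA-2 also differed from the 3 other lines in the transcripts of its cell type. Summed over 8 markers of biliary epithelium, EGI-1, OZ and TFK-1 had 10067, 9730 and 13293 CPM and Mz-ChA-2 2574, against a median of 7060 (336 to 13762) in the MTAP expressing lines. KRT7, a keratin of bile duct cells, was at 0.234 CPM in Mz-ChA-2, below all 19 other lines, and at 23.7, 872 and 1406 CPM in EGI-1, OZ and TFK-1. The epithelial adhesion molecule EPCAM was at 5.46 CPM in Mz-ChA-2 and at 825, 817 and 465 CPM in EGI-1, OZ and TFK-1. Summed over 6 hepatocyte markers, Mz-ChA-2 had 5258 CPM and OZ 1549, mostly SERPINA1 in both, with 83.2 and 13.1 in EGI-1 and TFK-1 against at most 458 CPM in the MTAP expressing lines. The transport protein TTR was at 470 CPM in Mz-ChA-2 and 0 in EGI-1, OZ and TFK-1.

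The mesenchymal list had 0 calls in 16 members tested, with 15 log2 differences below 0 and a median of −2.17. Some large negative values rested on few MTAP expressing lines. COL5A1 (−7.69) had 3363 CPM in HuH28, but class medians of 0.549 CPM (lost) and 0.454 CPM (expressing). MMP2 (−9.99) had 3771 CPM in HuH28, with class medians of 0.197 and 0.404 CPM in the same order. The epithelial list had 0 calls in 20, with 19 above 0 and a median of 0.54. By line the epithelial minus mesenchymal score was 3.11 in EGI-1, 2.85 in OZ and 3.96 in TFK-1 but −4.08 in Mz-ChA-2, against −11.13 to 4.98 in the MTAP expressing lines. Summed mesenchymal transcripts were 2001, 360 and 243 CPM in EGI-1, OZ and TFK-1 and 8134 CPM in Mz-ChA-2, most of it fibronectin (FN1, 6786 CPM). With that score as a covariate 0 genes were called. Markers of other cells differed from line to line. Summed over 6 immune markers, EGI-1, Mz-ChA-2, OZ and TFK-1 had 206, 241, 44.2 and 54.3 CPM, against a median of 95 (13.2 to 3150) in the MTAP expressing lines. Most of the sum in EGI-1 and Mz-ChA-2 was LYZ (156 and 228 CPM), and CD68 ran from 10.9 to 50.2 CPM, while PTPRC and CD3E had at most 3 counts in each of the 4 lines. The 6 fibroblast markers summed to 107 CPM in Mz-ChA-2, mostly PDGFRA (79.9) and LUM (19), and to 2.88, 10.9 and 0.785 CPM in EGI-1, OZ and TFK-1, against a median of 10.4 (0.497 to 528). The 4 endothelial markers summed to 7.21 CPM in EGI-1 and at most 0.546 in the 3 others, against a median of 3.39 (0.0751 to 56.3). The part of these differences in the other results was not tested.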

How the data were processed

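The authors deposited raw counts of reads per RefSeq entry for 20 lines, whole numbers with no normalization. Per the submitters' processing notes, reads were handled with featureCounts, Picard 1.69, TopHat2 2.0.8 and Trimmomatic on build hg19 (GRCh37). The kit marked strand per the labels' protocols, but the counting setting is not given in the sources used here. Of 24222 entries, 23512 took symbols from RefSeq, 355 from GENCODE and 355 none. RefSeq coordinates (GRCh38.p14) served only for gene order and the sequences shown.

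Lines were classed by their MTAP count. Genes were tested with edgeR 4.0.16 (limma 3.58.1, R 4.3.3): two-sided quasi-likelihood F tests with robust dispersion, filterByExpr, TMM scaling and prior count 2, called at a Benjamini-Hochberg adjusted p under 0.05 over 16050 genes. MTAP was left out of tests. Each line has 1 library, so p values measure the spread between lines. Exact permutation tests, two-sided, used log2(CPM + 0.5) over all 4845 choices of 4 of 20 lines, where the smallest p is 0.000206. List scores are means of log2 CPM centred per gene. The fit was tested on simulated counts.

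The lines and gene lists were chosen with earlier results of these data known. Values in full were given for up to 6 members of smallest p per main list and 4 per other list, 10 set genes such as PRMT5 and MAT2A, the 9p21 entries, up to 15 called genes in each direction and the 10 of smallest p in a direction with fewer than 5 calls. Others, and single cell type markers, were picked with their values known. A gene meeting this rule is not reported here. Alternatives tried included DESeq2 1.42.0, RLE scaling, limma-voom, other filters and prior counts, a non-robust fit, covariates (DSMZ and Zurich as 1 repository level), extrahepatic lines alone, lines left out in turn and 10 counts as the locus threshold. Leaving out Mz-ChA-2 and OZ together was added after seeing the data.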

Additional observations from a re-analysis of the deposited data

Results flagged for a closer look

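Among 65 genes examined, 11 had 1 of the 4 lines that lost MTAP far from the 3 others. The gap was above the 95% critical value of Dixon's test on a log scale. AMBP, NID1, CDHR2 and MTRNR2L8, also highest by far in 1 line, did not meet the criterion on that scale. Chance flags about 1 in 20 groups that were not chosen for their values. On 9p21, EGI-1 stood apart in MIR31HG (0.801 CPM) and IFNE (1.04 CPM) and Mz-ChA-2 in FOCAD (0 CPM). In MIR31HG, IFNE and CDKN2A the 3 other lines were at 0, where any line with a read meets the criterion. In CDKN2A that line was OZ, whose 0.0835 CPM (1 count) lies under the floor of 3 counts, so it does not stand apart. In arginine methylation, EGI-1 stood low in WDR77 (24.9 CPM) and TFK-1 low in CARM1 (29.6 CPM). Among the called genes, which were called for the level of this line, Mz-ChA-2 stood high in CTXND1 (230 CPM), KLB (103 CPM), INS-IGF2 (3988 CPM), IGF2 (4203 CPM) and GPC3 (1796 CPM). For these 5 genes the criterion repeats their choice and adds no evidence, and the chance rate does not apply.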

How the results depend on the processing

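The count of 10 called genes was unchanged with RLE scaling, a non-robust fit and prior counts of 0.5 or 5. It was 43 with no filter, 7 with a filter of 1 CPM, 98 with DESeq2 (17 higher, 81 lower), and 0 with limma-voom, with the exact permutation test (711 genes unadjusted), with repository, origin, either site coding or the epithelial minus mesenchymal score as a covariate, and in the extrahepatic lines alone. It was 1 without Mz-ChA-2 and OZ, and 2 to 19 with each line left out in turn (2 without Mz-ChA-2, 5 without HuH28, 6 without Sk-ChA-1 or SNU-1196, 19 without EGI-1, 3 of them lower). DESeq2 shared 1 of the 10 genes and gave no adjusted p for the other 9. It called 1 purine salvage gene, HPRT1.
Some log2 differences changed sign, those of the report and of FOCAD, TUSC1 and MLLT3 (−0.41, −0.80 and 0.49 with all lines). In the extrahepatic lines alone they were 0.54 for FOCAD, 0.12 for TUSC1, 0.09 for MRI1, 0.29 for APIP, 0.25 for ADI1, 0.30 for GOT2, −0.36 for MAT2A, 0.17 for ODC1, 0.09 for AMD1, −0.69 for SAT1 and 0.08 for PRMT5. Without Mz-ChA-2 and OZ they were 0.13 for FOCAD, 0.01 for TUSC1, −0.12 for KYAT1, −0.45 for MAT2A, −0.39 for SAT1, 0.09 for PRMT5, −0.50 for CDHR2, −0.88 for INS-IGF2, −1.0 for IGF2 and −2.47 for GPC3. With repository as a covariate they were 0.53 for ADI1, 0.05 for EIF5A and 0.11 for PRMT5. By site as a covariate they were −0.05 for MLLT3 and 0.13 for ADI1 with OZ as extrahepatic, and −0.57 for MAT2A without OZ. MLLT3 was −1.29 by limma-voom and −0.47 on the permutation scale, and ADI1 0.07 in both.
With each line left out in turn, log2 differences that changed sign ran from −0.78 to 0.88 for MLLT3, −0.28 to 0.07 for ADI1, −0.57 to 0.62 for MAT2A, −0.97 to 0.05 for ODC1, −0.03 to 2.17 for SAT1, −0.10 to 7.01 for CTXND1, −0.99 to 8.53 for INS-IGF2, −1.08 to 8.57 for IGF2 and −2.13 to 9.08 for GPC3.
The cause of these changes was not tested, beyond the smaller number of lines in the subsets. No paired analysis was made, because the labels match no line that lost MTAP to an MTAP expressing line. With 1 library per line and 4 lines in the smaller class, modest changes could not be detected. Entries at 0 are known only to the floor of 3 counts.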
